A study of Homo sapiens with 6 samples.

Results

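The miR-196 family of microRNAs comes from 3 human genes, MIR196A1, MIR196A2 and MIR196B, and the expression array held 1 probe set for each. The members were taken by gene symbol alone: every probe set that the platform annotation pairs with one of these symbols, which gave 3 of the 14884 genes, and 3 of the 16098 probe sets, that have a symbol here, among 53617 probe sets in all. The cells were HCT116, an established human colorectal carcinoma line whose name is written HTC116 in the sample titles. They had been stably transduced either with an empty vector (control, 3 arrays) or to overexpress miR-196b (3 arrays, called the labelled arrays here because the group rests on the labels). Total RNA of cultures in one growth medium was measured. The promoter of the vector, the hairpin it carried and whether each array came from its own transduction are not given in the sources used here. The p-values therefore measure the spread between these cultures only.

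A microRNA is transcribed as a longer primary transcript, and the enzyme DROSHA cuts a hairpin out of it, which DICER1 trims to a short mature strand. The mature strand, loaded into an Argonaute protein, pairs with messenger RNAs mainly through its seed and lowers their stability and translation. The miR-196 genes lie inside the HOX clusters, the gene groups that set position along the body axis, and HOXB8 is a classic target that miR-196 can direct to be cleaved. An array of this kind reads precursor transcripts or the hairpin region, so the values below are not levels of the mature microRNA.

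The sequences are shown first because all 3 genes encode nearly the same mature strand. Hairpins are from RefSeq on GRCh38.p14, written 5′ to 3′ in lower case with the mature arms in capitals.
MIR196B, chr7:27169480-27169563, minus strand: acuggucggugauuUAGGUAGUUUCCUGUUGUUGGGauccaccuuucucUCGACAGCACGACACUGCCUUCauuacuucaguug
MIR196A2, chr12:53991738-53991847, plus strand: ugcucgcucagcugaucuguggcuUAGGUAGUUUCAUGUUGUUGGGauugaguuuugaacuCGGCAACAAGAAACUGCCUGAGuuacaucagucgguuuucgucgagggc
MIR196A1, chr17:48632490-48632559, minus strand: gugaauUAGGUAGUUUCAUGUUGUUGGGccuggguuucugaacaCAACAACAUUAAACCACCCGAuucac

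In the RefSeq annotation MIR196B lies in the HOXA cluster between HOXA9 and HOXA10, within the span of the HOXA10-HOXA9 readthrough gene and of the long noncoding RNA HOXA10-AS. MIR196A2 lies in the HOXC cluster between HOXC10 and HOXC9 and overlaps no other annotated gene. MIR196A1 lies in the HOXB cluster beside HOXB9, within the long noncoding RNA HOXB-AS4. The HOXB8 and HOXC8 genes, whose messenger RNAs are reported targets, are in the same clusters as MIR196A1 and MIR196A2.

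The 5′ arms carry the shared identity of the family, and their seeds (bases 2 to 8) are in capitals here. The third sequence, let-7a, is added because it holds the same letters.
hsa-miR-196b-5p: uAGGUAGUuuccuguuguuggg
hsa-miR-196a-5p: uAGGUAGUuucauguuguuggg
hsa-let-7a-5p, same letters at bases 3 to 9: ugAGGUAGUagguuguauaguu

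MIR196A1 and MIR196A2 encode an identical 5′ arm, and from it to miR-196b the change is A12C, counted from 1 at the 5′ end, so 21 of 22 bases are shared and the seed is the same. Among 2370 distinct mature human microRNAs in the RefSeq table, these 2 alone had AGGUAGU at bases 2 to 8. The same 7 letters stood 1 base further along, at bases 3 to 9, in 9 others: 7 let-7 family strands, miR-98 and miR-4500. The 3′ arms of the 3 genes each had a seed found in no other mature strand of the table.

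Outside the 5′ arm the hairpins were less alike. MIR196A1 and MIR196A2 had 56 identical bases in a global alignment, 80.0% of the shorter hairpin, and their longest shared run was 23 bases. MIR196A2 and MIR196B had 64 identical bases (76.2% of the shorter hairpin) and MIR196A1 and MIR196B had 49 (70.0%), and in both pairs the longest shared run was 12 bases. Probe sequences were not used here, so how far the 3 probe sets read each other's transcripts was not tested.

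The 6 arrays had medians of 4.34 to 4.37 on the log2 scale, and over all probe sets, which are not independent replicates, Pearson r was 0.989 to 0.992 between arrays of one group and 0.988 to 0.990 across groups. Of the epithelial markers, EPCAM, an adhesion protein of epithelia, had a mean log2 signal of 11.0 in control and 10.9 in labelled arrays, and the brighter KRT18 probe set, a keratin of simple epithelia, at 11.3 and 11.1. The dimmer KRT18 probe set was at 7.50 and 7.39 and KRT8, another keratin, at 6.72 and 6.63, and for both the groups overlapped. VIL1, a protein of intestinal brush borders, was at 4.13 and 4.18, below the array medians, and CDH1 had no named probe set here. CDX2, a transcription factor of the intestinal lining, had a log2 change of -0.26 and the brighter KRT18 probe set one of -0.22, and for both the groups did not overlap (limma adjusted p = 0.481 and 0.405). Of 6 epithelial probe sets 5 were lower, and 2 had groups that did not overlap (17.2% of all named probe sets). Of the 6, 2 had an unadjusted p under 0.05 (9.87% of all) and 0 passed the limma test described below (0.0559% of all). The part of this in the results below was not tested. Of other cell types, LUM (2.00 in control) and THY1 (5.01) of 5 fibroblast markers and CD68 (7.71) of 5 blood markers had named probe sets. None of the 3 passed the limma test (0.0559% of all named probe sets) or had an unadjusted p under 0.05 (9.87% of all). The groups of LUM did not overlap, the labelled arrays being higher, which held for 10.0% of all named probe sets.

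MIR196B, the gene named by the labels, had nearly the same signal in both groups. Its log2 signal was 8.09, 7.91 and 7.91 on control arrays 1 to 3, and 8.21, 7.93 and 8.01 on labelled arrays 1 to 3. The groups overlapped, with the highest value on labelled array 1 and the next on control array 1. The mean log2 signal of the control arrays was 7.97 ± 0.102 and that of the labelled arrays 8.05 ± 0.144 (both SD, n = 3). The log2 change was 0.08 (SE 0.10), and its 95% interval corresponds to a ratio of 0.897 to 1.24 in signal, labelled over control (limma adjusted p = 0.819). Of all named probe sets, 42.1% had a smaller absolute change. Without labelled array 1 the change was -0.00073, and the direction is thus not settled.

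The MIR196A2 probe set, named for a gene that encodes miR-196a, had a higher signal in the labelled arrays. Which transcript gave that signal was not tested. The log2 signal of MIR196A2 was 3.09, 3.21 and 2.88 on control arrays 1 to 3, and 10.6, 10.5 and 10.8 on labelled arrays 1 to 3. All 3 labelled arrays lay above all 3 control arrays, and 7.25 separated the lowest labelled value from the highest control value. The mean log2 signal was 3.06 ± 0.167 against 10.6 ± 0.149 (both SD, n = 3), and the log2 change was 7.55 (SE 0.12, limma adjusted p = 4.53e-07). The 95% interval of the change corresponds to 155-fold to 227-fold in measured signal, taking the log base as 2, which no label states and which was inferred from the use of RMA. An exact two-sided permutation test gave p = 0.1, which is the floor for 3 against 3 arrays.

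The size of that rise depends on how a dim signal is read. On the control arrays the MIR196A2 signal stood above that of 24.2% to 30.1% of all probe sets of the same array, 1.13 to 1.46 below the array's median. On the labelled arrays it stood above that of 97.7% to 98.2%. These positions describe the signal and do not rank transcripts, since each probe set has its own response. The deposited values hold no detection call, so the control signal was not tested against background. With every value below its array's median raised to that median, the log2 change of MIR196A2 was 6.26, or 76.7-fold (limma adjusted p = 5.92e-05). Its control values are then the array medians, so that p-value does not measure their spread.

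MIR196A1, whose 5′ arm is identical to that of MIR196A2, did not pass the test. Its log2 signal was 4.97, 4.78 and 5.40 on control arrays 1 to 3, and 4.60, 4.86 and 4.88 on labelled arrays 1 to 3. The groups overlapped, and control array 3 stood highest. The mean log2 signal was 5.05 ± 0.319 against 4.78 ± 0.158 (both SD, n = 3), and the log2 change was -0.27 (SE 0.17, 95% interval -0.66 to 0.12, limma adjusted p = 0.622). Its spread within groups, an SD of 0.252, was larger than that of 88.3% of named probe sets, whose median SD was 0.128. Without control array 3 the change was -0.10. Without control array 2 it was -0.41 (95% interval -0.79 to -0.02, limma adjusted p = 0.600).

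**Figure D1:**
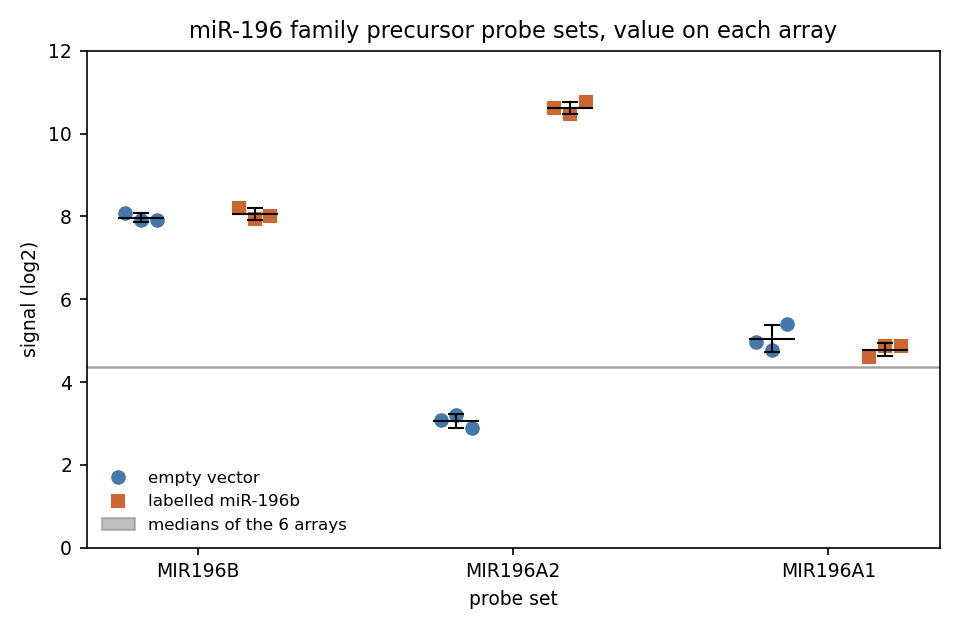
Log2 signal (vertical axis) of the 3 family probe sets on each array, with circles for empty vector arrays and squares for labelled arrays, and with black bars for the mean and SD of 3 arrays; the grey line covers the medians of the 6 arrays. MIR196A2 goes from 3.06 to 10.6, while the groups of MIR196B and of MIR196A1 overlap.

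Of the 3 members, 1 rose and 0 fell at an adjusted p below 0.05. Over all 16098 named probe sets 9 passed, which is 0.0559%, with 0.0248% higher and 0.0311% lower. The groups did not overlap for 1 of 3 members, against 17.2% of all named probe sets in either direction and 10.0% higher. MIR196A2 had the largest absolute change of all named probe sets and the second largest of all 53617. The family was proposed for description with that change already known, so its place among the probe sets is not independent evidence.

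The changes of the members were compared in pairs, and no pair had a permutation p below 0.05. The rise of MIR196A2 exceeded the change of MIR196B by 7.47 ± 0.146 on the log2 scale (SE) and that of MIR196A1 by 7.82 ± 0.305. The change of MIR196B exceeded that of MIR196A1 by 0.35 ± 0.269, and on this measure the groups overlapped. Exact two-sided permutation tests of the per-array differences gave p = 0.1, 0.1 and 0.4 (Benjamini-Hochberg adjusted over the 3 pairs, 0.15, 0.15 and 0.4), where 0.1 is the smallest possible. For both pairs with MIR196A2 the per-array differences of the labelled arrays lay above those of all control arrays.

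The HOX genes on either side of MIR196A2 did not pass the limma test. HOXC10, on one side, was at 4.97, 5.51 and 5.13 on control arrays 1 to 3 and at 4.91, 5.09 and 5.07 on labelled arrays 1 to 3 (log2 change -0.18, adjusted p = 0.70). HOXC9, on the other side, was at 6.69, 6.72 and 6.78 in control and at 6.79, 6.76 and 6.95 in the labelled arrays (log2 change 0.10, adjusted p = 0.697). The groups overlapped for both genes, and their upper 95% limits were 0.16 and 0.29, against a lower limit of 7.28 for MIR196A2. The HOX genes encode homeobox transcription factors.

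Near MIR196A1, HOXB9 had a log2 change of -0.23 (95% limits -0.49 and 0.03) and HOXB13 one of 0.17 (-0.19 and 0.53, limma adjusted p = 0.545 and 0.736). PRAC2 and PRAC1 are the nearest protein-coding genes on the side away from HOXB9, so HOXB13 does not adjoin MIR196A1. HOXB9 was at 9.01, 9.02 and 9.15 in control and at 8.70, 8.74 and 9.06 in the labelled arrays, so labelled array 3 lay within the control values. HOXA9 and HOXA10, the neighbours of MIR196B, had no named probe set here. Of the 6 HOX genes listed as neighbours, 4 were thus measured, 2 higher and 2 lower, their median being -0.04 in log2 change. Of these, 0 passed the limma test, against 0.0559% of all named probe sets. An unadjusted p under 0.05 was found for 0, against 9.87% of all. Over all named probe sets the median was 0.0069.

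Other microRNA genes inside the HOX clusters did not pass the test either. MIR615, in the HOXC cluster with MIR196A2, had a log2 change of 0.23 (95% limits -0.28 and 0.74, limma adjusted p = 0.753). MIR10B, in the HOXD cluster, had one of -0.06 (-0.33 and 0.22, limma adjusted p = 0.894). MIR10A had no named probe set here.

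Of 12 let-7 family precursors 11 were measured, and the 5′ strands of these, other than let-7e, carry the miR-196 seed letters 1 base further along. The let-7 family holds back growth-promoting and fetal genes such as HMGA2. Of the 11 probe sets 3 were higher and 8 lower, and their log2 changes had a median of -0.18 and a range of -0.33 to 0.23. None passed over all probe sets (0 of 11 by limma, against 0.0559% of all named probe sets). Of the 11, 2 had an unadjusted p under 0.05, as did 9.87% of all. MIRLET7G was at 4.57, 4.59 and 4.53 in control and at 4.22, 4.39 and 4.32 in the labelled arrays (log2 change -0.25, limma adjusted p = 0.401). It was the 1 probe set of the 11 (9.09%) whose groups did not overlap, against 17.2% of all named probe sets. MIRLET7D had a log2 change of -0.27 (limma adjusted p = 0.490) and MIRLET7A3 one of -0.26 (0.518). MIRLET7B had no named probe set here.

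**Figure D2:**
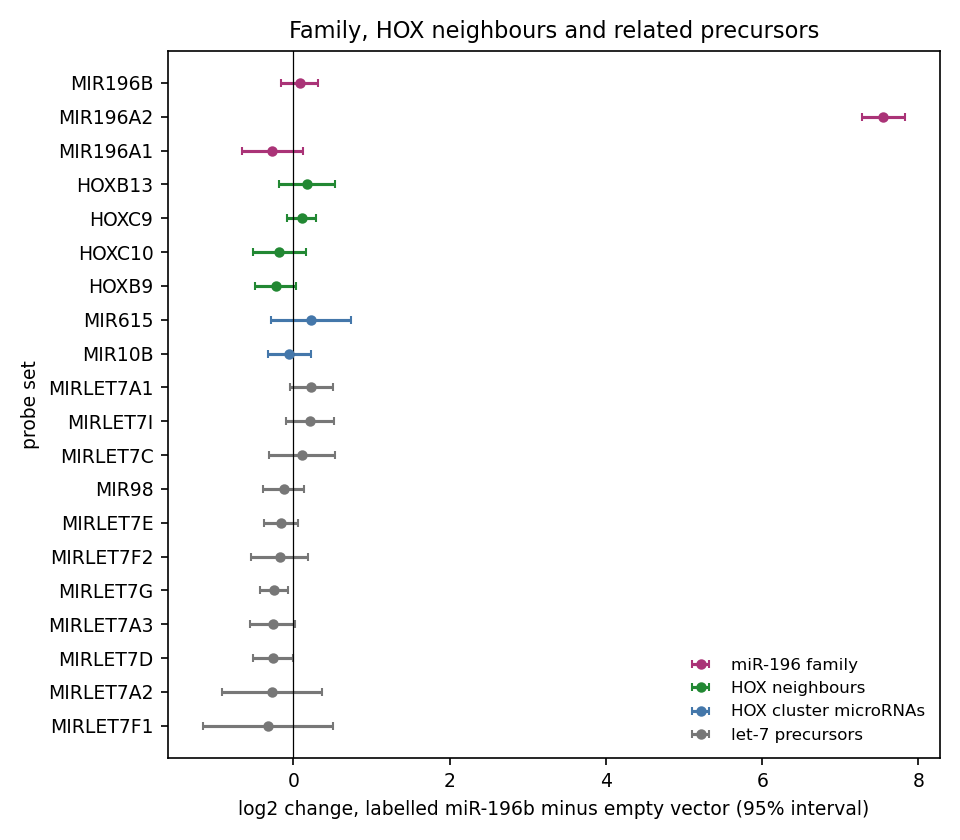
Log2 change (horizontal axis, labelled minus empty vector arrays, n = 3 each) with its 95% interval for the miR-196 family, the measured HOX neighbours, the measured microRNA genes of the HOX clusters and the measured let-7 precursors, 1 line per probe set. MIR196A2 stands at 7.55, and the point for every other probe set shown lies between -0.33 and 0.23.

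Among 1236 named probe sets of microRNA precursors (1072 genes), 2 passed the limma test, or 0.162%: MIR196A2 and MIR149, which was lower. Without the 3 family members, 608 of 1233 were higher and 625 lower, and the median of their log2 changes was -0.0035. The groups did not overlap for 13.1% of the 1236. Some genes had several probe sets, in part with identical values, so these counts are of probe sets and not of independent precursors. MIR196A2 was the 1 precursor probe set whose absolute log2 change was above 1. The largest other rises were MIR3189 (0.88), MIR505 (0.84) and MIR4659A (0.80), and none of these passed (limma adjusted p = 0.506, 0.352 and 0.469). The largest falls were MIR29B2 (-0.89, limma adjusted p = 0.603), MIR149 (-0.75, 0.0480) and MIR548T (-0.73, 0.733). The MIR149 call was lost when any 1 array was left out (limma adjusted p = 0.140 to 0.304). MIR29B2 had an SD of 1.18 in control, with values of 2.48, 1.52 and 3.86, so its fall was within the spread between arrays.

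**Figure D3:**
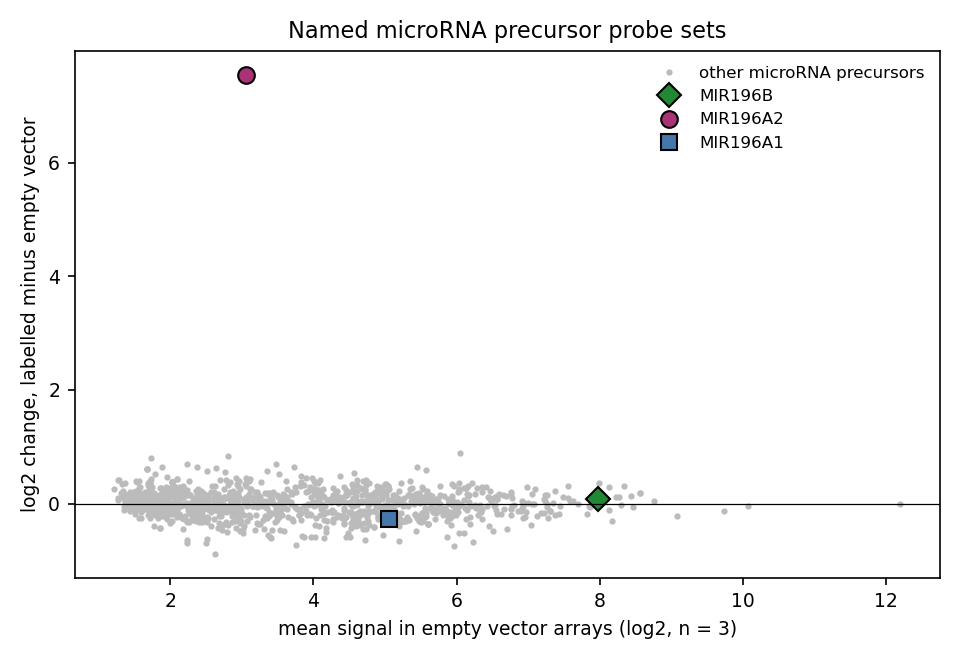
Log2 change (vertical axis, labelled minus empty vector arrays) against mean log2 signal in the empty vector arrays (horizontal axis, n = 3) for the 1236 named microRNA precursor probe sets, with the family in large symbols. MIR196A2 lies at 7.55, and the other precursors lie between -0.89 and 0.88.

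Genes that cut, carry or use microRNAs were measured for 6 of 12 listed. These were DGCR8, the RNA-binding partner of DROSHA, XPO5, which exports the hairpin from the nucleus, TARBP2, a partner of DICER1, and TNRC6A, TNRC6B and TNRC6C, which link Argonaute to mRNA decay. None passed (0 of 6 by limma, against 0.0559% of all named probe sets), and 0 had an unadjusted p under 0.05, against 9.87% of all. Of the 6, 4 were higher and 2 lower, the median of their log2 changes being 0.05. TNRC6B had a log2 change of 0.19 (limma adjusted p = 0.507), TNRC6C one of 0.09 and TARBP2 one of 0.07. The groups did not overlap for 33.3% of the 6, TNRC6B higher and DGCR8 lower, against 17.2% of all named probe sets. DROSHA, DICER1 and AGO1 to AGO4 had no named probe set here.

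Reported miR-196 targets, the genes the family acts on, were measured for 17 of 25 listed, and the list was drawn up with earlier results of these arrays known. Of these 6 were higher and 11 lower, and their log2 changes had a median of -0.11. An unadjusted p under 0.05 was found for 5 of the 17, against 9.87% of all named probe sets. By limma 1 of the 17 passed, against 0.0559% of all named probe sets: GALNT5, an enzyme that begins mucin-type O-glycans. It was at 7.70, 7.998 and 7.83 in control and at 6.71, 6.81 and 6.73 in the labelled arrays (log2 change -1.09, limma adjusted p = 0.0233), and lost its call when any 1 of the 6 arrays was left out (0.0519 to 0.179). HOXB7 had a log2 change of -0.64 and HOXB8 one of -0.47, which did not pass (limma adjusted p = 0.0974 and 0.331). The groups did not overlap for 6 of the 17, all lower, against 7.18% of all named probe sets lower. The GALNT5 and HOXB7 genes are named in the title of the study, so the direction of this list is not supported independently by its members. HOXB7 and HOXB8 lie in the same cluster as MIR196A1.

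Profiles most like those of the members were ranked by the root mean square difference of log2 values over the 6 arrays, after each probe set was centred on its own mean. No named probe set came close to MIR196A2: the nearest were PRF1 at 3.20, MBNL3 at 3.29 and SAT1 at 3.35, whose own log2 changes were 1.17, 0.98 and 0.85. The values were not scaled, so the distance depends on the size of a change. The distance of MIR196A2, which had the largest change of all named probe sets, from the others thus restates that size. PRF1 encodes perforin, MBNL3 a splicing regulator and SAT1 an enzyme of polyamine breakdown. For MIR196B the nearest were SH3BP1 (0.0219), MLC1 (0.0287) and BCKDK (0.0292), and for MIR196A1 they were MIR30D (0.0639), MIR194-1 (0.0640) and LHX4 (0.0689). The log2 changes of these 6 ranged from -0.25 to 0.09 and none passed the limma test.

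Across 15 alternative settings MIR196A2 stayed past the threshold and MIR196B and MIR196A1 did not pass it. Not all of these settings test MIR196A2. With values below the array median raised to it, its control values were the medians, so their spread was not tested. Where the dimmest probe sets were left out, it was kept through its labelled arrays, so that choice was not independent of its rise. The log2 change ranged from 6.26 to 7.63 for MIR196A2, with limma adjusted p = 1.12e-13 to 0.00826. It ranged from -0.00073 to 0.14 for MIR196B and from -0.41 to -0.10 for MIR196A1.

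**Figure D4:**
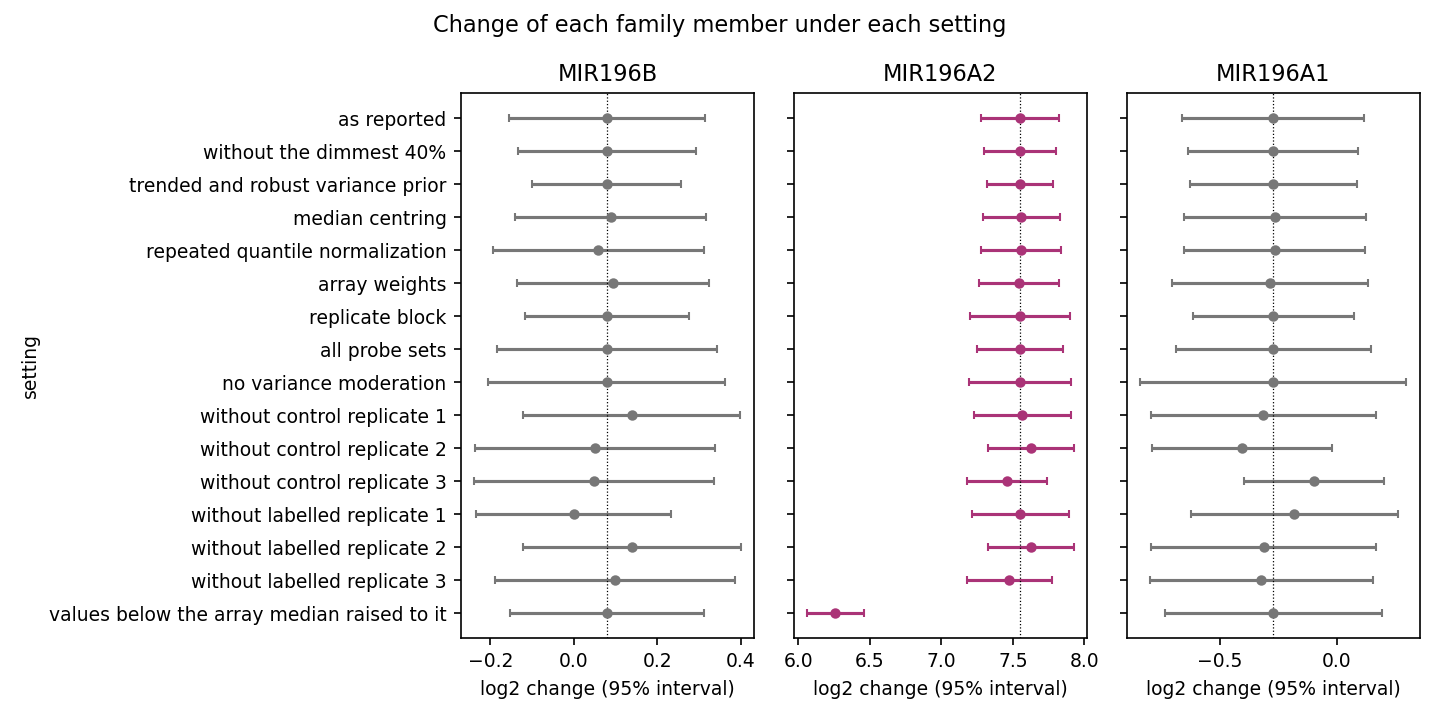
Log2 change (horizontal axis, with its 95% interval from the fit) of each family probe set under each setting named on the vertical axis; the dotted line is the reported value, dark points have an adjusted p below 0.05 and grey points do not. MIR196A2 stays at 6.26 or above, and the horizontal scale differs between the 3 panels.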

How the data were processed

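Per the labels' protocols, total RNA was biotin-labelled for whole-transcript arrays, 1 per sample. The authors deposited 1 log value for each probe set; the submitters' processing notes name RMA and Partek 6.6 without options. RMA gives log2 values and equalises overall levels between arrays. The deposited values were taken as log2 on that ground; no label states the base, and every fold depends on it. No genome build is given in the sources used here.

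Symbols came from the platform annotation, updated by gene identifier to RefSeq (GRCh38.p14): 16098 of 53617 probe sets had 1 symbol, all matched, 37519 had none and are unnamed here. The 16098 were fitted with limma 3.58.1 (R 4.3.3; lmFit, eBayes, no filter, Benjamini-Hochberg threshold 0.05; 4 residual and 3.23 prior degrees of freedom). Sequences were aligned with Biopython 1.88 (match 2, mismatch -1, gap opening -3, extension -1). The fit was tested on simulated data. The members, lists and naming rule were chosen with earlier results of these data known. The rule named the members, all HOX neighbours and HOX-cluster microRNAs, the 3 smallest p of the let-7, processing and target lists, the 3 largest rises and falls of precursors, and the 3 nearest profiles. Cell type markers were named outside it. The alternatives appear in the closing section. The number of arrays limits precision, and no batch label was used.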

Additional observations from a re-analysis of the deposited data

How the results depend on the processing

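The change of MIR196A2 kept its direction and its call under all 15 alternatives, and lay between 7.46 and 7.63 with any 1 array left out. MIR196B and MIR196A1 did not pass under any of them. With 1 array left out MIR196B ranged from -0.00073 (without labelled array 1) to 0.14. Raising values below the array median to it gave 6.26 for MIR196A2, and its excess over MIR196B and over MIR196A1 became 6.18 and 6.53, by construction of that setting; with 1 array left out the excess ranged from 7.38 to 7.58 and from 7.56 to 8.03. All 3 members remained without the dimmest 40% of probe sets, MIR196A2 through its labelled arrays. Neither the call of MIR196A2 in that setting nor its call with raised values is a separate test of its rise.

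The count of named probe sets called was 9 and moved more: 22 without the dimmest 40%, 91 with a trended and robust variance prior, 5 without variance moderation, 2 to 3 with 1 array left out. With the replicate number as a block it was 1, MIR196A2 (limma adjusted p = 0.000438). Deviations of same-numbered arrays correlated at 0.0085 to 0.037, and 4 of 6 arrays correlated best with their own number. These values do not settle whether the numbers mark pairs. The labels state no pairing, and the main fit used none. Among called genes outside the family, an addition made after the values were seen, GALNT5 and PRF1 each lost the call under 9 of 14 alternatives and MIR149 and SAT1 under 10, all 6 single-array omissions included. The mean of several probe sets was not run, since each member had 1.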

Other observations

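Over all 53617 probe sets, a comparison added after the values were seen, 1 unnamed probe set had a profile near that of MIR196A2. Probe set 17118492 lay at a root mean square difference of 0.348 over the 6 centred arrays, and the next, 16992335, at 2.79. Probe set 17118492 was at 3.09, 3.12 and 3.45 on control arrays 1 to 3 and at 11.2, 11.2 and 11.6 on labelled arrays 1 to 3, and its groups did not overlap. Which transcript it reads is not known here.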
